A study of Homo sapiens with 20 samples.

Results

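The RNA response of K562 cells to 24 h of GSK343 and X5050 together was compared with cells kept in DMSO, the solvent. K562 is an established human leukaemia line with erythroid and megakaryocytic features, derived from a patient with chronic myeloid leukaemia. The members are 4 of the 20 RNA libraries in the series, chosen by their labels: 2 biological replicates that received 5 µM GSK343 with 100 µM X5050 for 24 h, and 2 that received DMSO for 72 h. The control was therefore not matched in time, and 24 h of drug cannot be told apart from a shorter time in culture. The other libraries of the drug arm (GSK343 alone, X5050 alone, both drugs for 8 h and both drugs for 72 h, 2 each) entered the same model, so that the spread was estimated over 12 libraries, and the 8 h and 72 h groups are used here to place the 24 h levels in time.

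GSK343 blocks EZH2, the catalytic subunit of Polycomb repressive complex 2 (PRC2), which places the repressive mark H3K27me3 on histone H3. X5050 lowers the protein of REST, a repressor that binds RE1 sites in neuronal genes and recruits corepressors such as RCOR1. Both act on protein and not directly on RNA, so neither target's transcript is a check of the treatment. RNA can also answer a high dose of a small molecule through stress pathways: NF-κB and immediate early genes, metal and oxidative stress genes, heat shock genes and the integrated stress response. Gene lists for these pathways, for both targets and for blood lineages were therefore read side by side.

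The libraries held 23075827 and 26472232 gene counts with DMSO and 35819777 and 33572479 at 24 h. They also differed in ways that move with the groups. Reads mapping to several places made up 19.0% and 19.5% with DMSO against 11.0% and 12.6% at 24 h, and the level of a gene followed the GC content of its transcript. In the 24 h libraries genes under 40% GC stood 0.28 and 0.30 log2 units above the mean of the 12 libraries and genes over 65% GC stood 0.59 and 0.50 units below it, a fitted trend the 8 h libraries shared. With DMSO the same classes stood at -0.15 and -0.011, and at 0.22 and 0.092. The trend was removed within each library before the test. The result with the trend kept is given for some genes and lists only, and it can differ for the others. For HMMR the log2 fold change was 0.66 with the trend removed and 1.05 with it kept, and for SREBF1 -0.95 and -1.41. Removal also takes away any true change that follows GC content, and the part of the trend due to treatment was not tested. Levels per library are CPM, counts scaled by library depth, made comparable between libraries but not adjusted for GC. Fold changes against DMSO can therefore differ from the ratio of CPM values. In genes rich in G and C a rise can be larger and a fall smaller than that ratio. In genes poor in them the reverse holds.

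**Figure D1:**
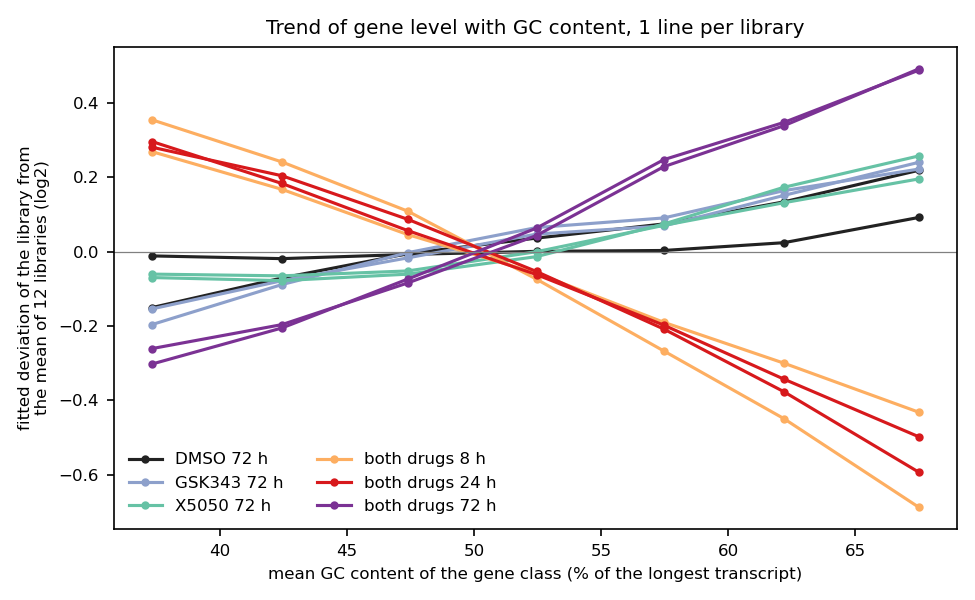
Fitted deviation of each drug library from the mean of 12 libraries (log2, y axis) against the mean GC content of the gene class (% of the longest transcript, x axis), with 1 line per library and colour for the group. The 24 h and 8 h lines fall with GC content, from 0.28 and 0.30 to -0.59 and -0.50 at 24 h, while the DMSO lines rise slightly.

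At 24 h 7270 of 19224 tested genes (37.8%) had an edgeR adjusted p under 0.05, of which 3555 (18.5% of all tested) were higher and 3715 (19.3%) lower than with DMSO. More than 1 log2 unit separated the groups for 1382 higher (7.19%) and 1678 lower genes (8.73%). These shares are the background for every count below: a list with about as many members called as all genes is not a result about the list. The median over all tested genes was -0.03. With the trend kept 8277 genes (43.1%) were called, 4228 higher and 4049 lower, and 6028 (31.4%) were called with the same sign both ways. The trend mattered most at its ends. Among the 6167 genes of lowest GC content, 2256 were called higher and 579 lower with it kept, against 1246 and 1197 with it removed. Among the 6165 of highest GC content, 624 were higher and 2249 lower with it kept, against 1089 and 1253. A stricter set was called both ways and in each fit without 1 of the 4 libraries, with groups that did not overlap and a mean of at least 2 CPM in the higher group. It held 1782 higher genes (9.27%) and 1495 lower ones (7.78%), and the genes named below come from it unless stated.

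The largest rises took in cytokine and cytokine receptor genes, metallothioneins and genes of neurons and muscle. CXCL8, the neutrophil chemokine interleukin 8, stood at 0.950 and 0.520 CPM with DMSO and at 1135 and 1155 CPM at 24 h, a log2 fold change of 10.16 ± 0.36 (SE; edgeR adjusted p = 4.48e-09). At 8 h it already stood at 173 and 187 CPM, and at 72 h of both drugs at 199.5 and 333 CPM, so its 24 h level was the highest of the 3 times (adjusted p against 72 h = 0.000631). IL7R, the interleukin 7 receptor chain, had no count in either DMSO library and 12.1 and 12.7 CPM at 24 h, at least 203-fold higher against a floor of 3 counts over the DMSO group. It was at 0.117 and 0.204 CPM at 8 h and back at 1.18 and 1.34 CPM at 72 h, which makes it a transcript seen mainly at 24 h among these groups.

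VGF, a neuronal secreted peptide precursor, stood at 2.15 and 0.800 CPM with DMSO, at 266 and 296 CPM at 24 h and at 51.2 and 49.3 CPM at 72 h. Its log2 fold change at 24 h was 8.44 ± 0.30, or 7.58 with the GC trend kept. XIRP1, an actin-binding protein of muscle, was at 0.165 and 0.160 CPM against 39.2 and 38.3 CPM. CCR7, a chemokine receptor of lymphocytes and dendritic cells, was at 0 with DMSO and at 2.69 and 3.78 CPM at 24 h (at least 52.8-fold). In each of these genes both treated libraries lay far above both controls. TRAF1, an adaptor of tumour necrosis factor receptors, and SOX8, a developmental transcription factor, each had 1 DMSO count. Their ratios over that count were 189 (95% counting interval 33.6 to 7499) and 113 (19.9 to 4480). ARC, an immediate early gene of neurons, rose from 0.206 and 0.280 CPM to 21.9 and 23.9 CPM and stood higher still at 72 h, at 149 and 140 CPM.

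The largest falls were in genes of varied function. FAM178B was at 105 and 184 CPM with DMSO and 6.53 and 7.42 CPM at 24 h (-3.94 ± 0.32, adjusted p = 9.71e-06). WSCD2 fell from 14.5 and 23.8 CPM to 0.672 and 0.635 CPM, by 4.75 on the log2 scale, and PCK1, the gluconeogenic phosphoenolpyruvate carboxykinase, from 2.19 and 4.36 CPM to 0.0960 and 0.200 CPM. TSC22D3, known as GILZ and induced by glucocorticoids, fell from 10.2 and 8.12 CPM to 0.480 and 0.835 CPM. For these 4 genes too the groups did not overlap, although the DMSO replicates of FAM178B, WSCD2 and PCK1 lay well apart. PRSS8, a membrane serine protease, stood at 16.0 and 9.60 CPM with DMSO, 1.28 and 0.768 CPM at 24 h and 14.9 and 11.2 CPM at 72 h. The transcription factor POU3F2 followed the same course, with 3.14 and 5.24, then 0.448 and 0.535, then 2.67 and 3.09 CPM. The others among the 14 largest falls were CPXM1, CRYBA4, KDF1, MASP1, LIPC, ASTN1, DENND3 and PSMB9, with log2 fold changes from -3.86 to -3.05.

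**Figure D2:**
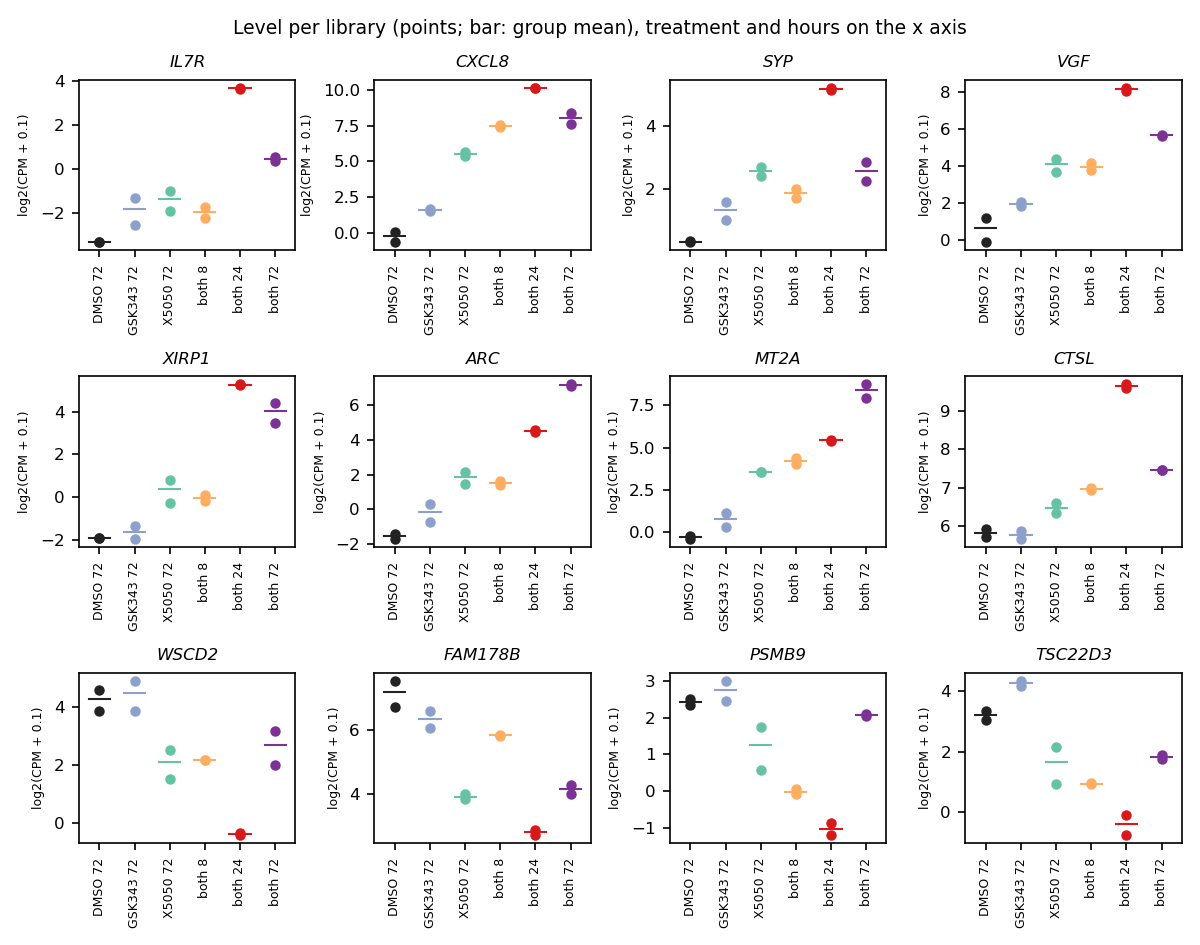
Level per library (log2 of CPM plus 0.1, y axis) of 12 genes in the 6 drug groups (x axis, treatment and hours), with points for libraries and a bar for the group mean. CXCL8, IL7R, VGF, SYP and CTSL are highest at 24 h, ARC and MT2A are higher at 72 h of both drugs, and the bottom 4 genes are lowest at 24 h.

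Among the drug targets, EZH2 RNA was at 163 and 122 CPM with DMSO and at 247 and 245 CPM at 24 h (0.55 ± 0.14, adjusted p = 0.00512), and its call was lost when only these 4 libraries were fitted (adjusted p = 0.0506). REST RNA was at 53.1 and 68.3 CPM against 124 and 116 CPM (0.67 ± 0.11, adjusted p = 0.000281). With the GC trend kept the changes of EZH2 and REST were 0.79 and 0.98. Both transcripts were thus higher at 24 h, and at 72 h of both drugs they stood at 108 and 111 CPM and at 69.3 and 69.5 CPM, lower than at 24 h (adjusted p = 0.00058 and 0.0441). FGF18, a fibroblast growth factor, rested on 5 counts with DMSO and 22 at 24 h, or 0.0413 and 0.160 CPM against 0.448 and 0.267 CPM. Its call (2.05 ± 0.75, adjusted p = 0.0414) was lost with the trend kept (0.0676) and without the first DMSO library (0.245), the first 24 h library (0.243) or the second (0.0576). Of 8 tested genes in the FGF18 neighbourhood 5 were called higher, but 1 with the first DMSO library or either 24 h library left out, and none met the stricter conditions.

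Of 11 PRC2 subunit genes 5 rose and 2 fell, with a median of 0.34. With the GC trend kept 9 rose and 1 fell. JARID2, a PRC2 cofactor, went from 86.1 and 106 CPM to 183 and 173 CPM (0.91 ± 0.12, adjusted p = 2.49e-05). PHF19 and PHF1, which help recruit the complex, rose by 0.78 and 0.79 log2 units. EZH1, the second methyltransferase that can take the place of EZH2, fell from 86.0 and 61.3 CPM to 45.7 and 46.9 CPM (-0.64 ± 0.15, adjusted p = 0.00308). Of 15 developmental transcription factors that Polycomb represses in many cells and that passed the filter, of 35 in the list, 1 rose and 3 fell, no more than the background in the upward direction. None of them met the stricter conditions.

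Among REST and its corepressors 5 of 15 genes rose and 3 fell, with 3 rising with either 24 h library left out and 5 falling without the first DMSO library. RCOR1, the scaffold that links REST to histone demethylation, was at 142 and 168 CPM against 240.4 and 238 CPM. RCOR2, its relative, fell from 14.2 and 14.8 CPM to 2.27 and 1.27 CPM (-2.60 ± 0.24, adjusted p = 8.21e-07), and the histone methyltransferase EHMT2 from 107 and 133 CPM to 52.3 and 46.2 CPM. Of 25 neuronal REST target genes that passed the filter, of 38 in the list, 14 rose and 2 fell, with a median of 1.27 (1.14 with the 1 member at 0 in DMSO put at its bound). With the trend kept 13 rose and 5 fell. The summed level of these 25 genes was 637 and 824 CPM with DMSO and 644 and 667 CPM at 24 h. Beside VGF, the synaptic vesicle protein SYP rose from 1.16 and 1.20 CPM to 35.3 and 36.9 CPM (5.22 ± 0.27, adjusted p = 1.26e-09) and stood at 4.69 and 7.21 CPM at 72 h. PTPRN, a protein of secretory granules, went from 0.578 and 0.320 CPM to 19.2 and 21.7 CPM, and CALB1, a calcium buffer, from 9.37 and 9.32 CPM to 52.9 and 51.2 CPM. All 4 were higher at 24 h than at 8 h and lower again at 72 h. Of 17 list promoters given by RefSeq, 1 (that of SYN1) held a full RE1 site on either strand, as did 0.0144% of 34788 distinct promoters.

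NF-κB is a family of transcription factors held inactive by inhibitors such as NFKBIA, and the genes it induces include some of those same inhibitors. Of 24 tested genes of the NF-κB response 20 rose and none fell, with a median of 2.71 (2.31 with the 2 members at 0 in DMSO put at their bounds). With the trend kept 19 rose and none fell. Promoters of 3 members are printed because they carry the list's motif close to the start of the gene and belong to genes that rose. They are the 250 bases before the start in RefSeq's GRCh38.p14 annotation, 5′ to 3′ on the gene's strand, with matches to the NF-κB site (GGG and TTTCC with 2 bases between them, or GGAATTTCC; the 2 forms overlap in TNFRSF9 and NFKB1) and to the AP-1 site (TGANTCA) in capitals:
CXCL8, chr4:73740319-73740568, plus strand: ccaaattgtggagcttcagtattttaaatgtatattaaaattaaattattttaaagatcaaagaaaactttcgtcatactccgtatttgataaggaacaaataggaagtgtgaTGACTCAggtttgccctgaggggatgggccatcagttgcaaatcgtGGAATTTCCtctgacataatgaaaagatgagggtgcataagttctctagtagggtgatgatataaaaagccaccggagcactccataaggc
TNFRSF9, chr1:7940840-7941089, minus strand: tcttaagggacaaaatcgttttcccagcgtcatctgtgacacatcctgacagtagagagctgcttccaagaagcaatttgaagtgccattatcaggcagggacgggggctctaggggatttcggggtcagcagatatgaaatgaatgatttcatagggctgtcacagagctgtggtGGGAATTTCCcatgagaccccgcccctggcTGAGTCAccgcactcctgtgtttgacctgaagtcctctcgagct
NFKB1, chr4:102501109-102501358, plus strand: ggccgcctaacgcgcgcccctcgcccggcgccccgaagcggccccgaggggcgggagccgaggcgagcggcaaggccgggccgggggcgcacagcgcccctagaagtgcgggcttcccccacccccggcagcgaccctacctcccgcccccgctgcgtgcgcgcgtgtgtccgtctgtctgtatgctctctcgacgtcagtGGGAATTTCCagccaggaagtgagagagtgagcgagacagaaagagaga
The NF-κB letters, read on both strands, were in 14 of 20 list promoters in that table (70.0%) and in 2.01% of all promoters. The AP-1 letters were in 2 of 20 (10.0%) and in 6.59%. A match describes the letters in this window only. In CXCL8 the NF-κB match begins 91 bases and the AP-1 match 137 bases before the start.

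CXCL8 was the largest rise of the list. TNFRSF9, the receptor 4-1BB, rose from 0.372 and 0.320 CPM to 22.9 and 22.2 CPM (5.81 ± 0.24, adjusted p = 1.61e-10). RELB, a subunit of the alternative NF-κB pathway, went from 1.57 and 1.72 CPM to 23.3 and 23.5 CPM, and NFKB1, the p50 precursor, from 18.4 and 20.96 CPM to 69.8 and 66.9 CPM. NFKB1 had reached 55.7 and 58.6 CPM by 8 h, and its 24 h level did not pass the test against 8 h (adjusted p = 0.115). TNFRSF9 and RELB rose further, to 37.4 and 41.1 CPM and to 62.9 and 86.8 CPM at 72 h, where CXCL8 was lower again.

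Immediate early genes are switched on within minutes of a stimulus, and many of them encode transcription factors. They gave the fullest list: 21 of 23 rose and none fell, with a median of 2.07, and 20 rose with the trend kept. KLF6 went from 62.6 and 98.4 CPM to 1183 and 1151 CPM (3.71 ± 0.17, adjusted p = 6.58e-10). FOSB, an AP-1 subunit, was at 2.15 and 1.20 CPM against 31.1 and 33.1 CPM, and the nuclear receptor NR4A1 at 10.9 and 10.6 CPM against 83.4 and 89.7 CPM. NR4A1 differed in timing, since at 8 h it stood at 6.80 and 7.17 CPM, below both controls in CPM not adjusted for GC. With the trend removed its 24 h level was 3.63 log2 units above 8 h and 3.34 above DMSO. Its 8 h level was not tested against DMSO. Among FGF signalling and ERK feedback genes 9 of 22 rose and 5 fell, or 3 fell with the first DMSO library or either 24 h library left out. Those named here, by lowest p, all rose. SPRY4, a feedback inhibitor, went from 34.1 and 29.2 CPM to 275 and 264 CPM (3.11 ± 0.14, adjusted p = 3.89e-10), DUSP5, an ERK phosphatase, from 7.31 and 4.84 CPM to 93.3 and 90.5 CPM, and PHLDA1 from 2.48 and 1.76 CPM to 179 and 197 CPM. IER3 followed with 26.6 and 30.6 against 269 and 271 CPM. Each of these 4 was lower at 72 h than at 24 h.

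Metallothioneins bind zinc and copper and are induced through metal response elements. Of 12 metallothionein and zinc handling genes 8 rose and 1 fell, with a median of 5.20, or 3.24 with the 4 members at 0 in DMSO put at their bounds. Promoters of 3 of them are shown for the number of metal response element cores they hold, TGCACNC or TGCGCNC on either strand, in capitals:
MT2A, chr16:56608334-56608583, plus strand: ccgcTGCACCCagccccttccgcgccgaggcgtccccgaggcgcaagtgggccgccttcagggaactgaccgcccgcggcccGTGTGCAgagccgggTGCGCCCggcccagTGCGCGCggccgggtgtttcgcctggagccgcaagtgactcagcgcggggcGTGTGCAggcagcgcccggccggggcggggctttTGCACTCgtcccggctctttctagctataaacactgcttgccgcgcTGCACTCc
MT1X, chr16:56682220-56682469, plus strand: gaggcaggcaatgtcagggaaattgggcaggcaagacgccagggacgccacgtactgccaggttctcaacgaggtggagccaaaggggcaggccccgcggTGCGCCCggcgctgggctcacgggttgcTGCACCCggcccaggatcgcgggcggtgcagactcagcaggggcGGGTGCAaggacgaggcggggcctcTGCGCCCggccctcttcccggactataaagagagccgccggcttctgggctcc
MT1H, chr16:56669564-56669813, plus strand: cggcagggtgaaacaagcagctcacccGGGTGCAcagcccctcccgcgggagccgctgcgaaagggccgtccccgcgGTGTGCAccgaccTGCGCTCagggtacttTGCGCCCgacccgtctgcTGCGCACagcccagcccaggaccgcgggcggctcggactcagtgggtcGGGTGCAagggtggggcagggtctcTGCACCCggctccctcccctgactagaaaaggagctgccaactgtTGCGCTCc
The core was in 4 of 7 list promoters (57.1%) and in 24.8% of all promoters, so a single match is common, while these windows held 7, 4 and 8 matches. MT2A was at 0.661 and 0.760 CPM with DMSO, 20.6 and 16.0 CPM at 8 h, 43.4 and 42.6 CPM at 24 h and 245 and 428 CPM at 72 h. Its log2 fold change at 24 h was 6.03 ± 0.37 (adjusted p = 8.01e-07). MT1E and MT1H had no DMSO count and were at least 48.5-fold and 39.2-fold higher. MT1G, MT1X and MT1F had 1 or 2 DMSO counts, and their ratios were 439 (95% counting interval 78.5 to 17381), 173 (47.6 to 1433) and 108 (29.6 to 895). MT1E stood at 2.82 and 3.11 CPM at 24 h and at 4.04 and 2.96 CPM at 8 h, which did not pass the test (adjusted p = 0.584), while MT1H, MT1G, MT1X, MT1F and MT2A were higher at 24 h than at 8 h. All 6 were higher again at 72 h. These paralogs are near copies, so reads shared among them could be lost from the counts or split, and the level of a single member is uncertain.

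Oxidative stress genes and targets of NRF2, the regulator of antioxidant enzymes, rose in 16 of 22 cases and fell in 1, with a median of 0.98. OSGIN1 went from 10.1 and 13.6 CPM to 124 and 119 CPM (3.84 ± 0.17, adjusted p = 2.70e-10), and TXNRD1, thioredoxin reductase, from 256 and 315 CPM to 1238 and 1182 CPM. FTL, the ferritin light chain that stores iron, rose from 1005 and 1264 CPM to 4682 and 3955 CPM. Genes of autophagy and the lysosome rose in 16 of 27 cases and none fell, with a median of 0.43. CTSL, the protease cathepsin L, was at 52.4 and 60.4 CPM with DMSO, 126 and 123 CPM at 8 h, 825 and 771 CPM at 24 h and 176 and 177 CPM at 72 h. Its change at 24 h was 3.89 ± 0.13 (adjusted p = 2.53e-11). SQSTM1, an autophagy receptor on both lists, rose from 228 and 345 CPM to 2194 and 2231 CPM and stood at 2455 and 2466 CPM at 72 h, and MAP1LC3B, of the autophagosome membrane, from 188 and 173 CPM to 563 and 548 CPM.

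Heat shock genes rose in 14 of 24 cases and fell in 1, with a median of 0.74. The promoter of HSPA8, the constitutive chaperone HSC70, is shown because it holds 2 matches to the heat shock element, spelled GAA, TTC and GAA (or TTC, GAA and TTC) with 2 bases between each and printed in capitals:
HSPA8, chr11:123062137-123062386, minus strand: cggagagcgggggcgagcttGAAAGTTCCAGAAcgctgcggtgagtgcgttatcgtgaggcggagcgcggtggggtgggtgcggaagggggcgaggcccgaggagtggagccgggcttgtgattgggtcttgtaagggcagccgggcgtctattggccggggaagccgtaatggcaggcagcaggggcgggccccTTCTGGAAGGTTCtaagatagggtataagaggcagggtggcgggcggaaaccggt
Those letters, on either strand, were in 4 of 22 list promoters (18.2%) and in 0.443% of all promoters. HSPA8 itself went from 615 and 832 CPM to 3650.2 and 3588 CPM (2.22 ± 0.22, adjusted p = 1.42e-05). HSP90AB1 was at 2216 and 2502 CPM against 4633 and 4395 CPM, the cochaperone DNAJA1 at 72.4 and 92.3 CPM against 238 and 238 CPM, and the mitochondrial cochaperonin HSPE1 at 9.91 and 17.6 CPM against 47.4 and 47.8 CPM. The stress-inducible HSPA1A, looked at after its values were seen, was not called: its DMSO libraries stood at 47.0 and 312 CPM, on both sides of the 24 h levels of 228 and 211 CPM. Since the second DMSO library was the higher of the pair in several of these genes, the count was run without each: 14 rose and 4 fell without the first, and 21 rose and none fell without the second.

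The integrated stress response acts through the transcription factor ATF4 to raise amino acid supply genes. This response exceeded the background in falls but not in rises (18.5% of all tested genes were higher and 19.3% lower). Of 40 of its genes 7 rose (4 without the first 24 h library) and 19 fell, with a median of -0.41. DDIT3, the factor CHOP, was at 91.0 and 69.1 CPM against 159 and 166 CPM, and GDF15, a secreted stress cytokine, at 199 and 378 CPM against 1453 and 1483 CPM (2.80 ± 0.28, adjusted p = 3.64e-05). The members that fell include enzymes of serine, glycine and cysteine metabolism: SHMT2 went from 541 and 486 CPM to 224 and 216 CPM (-0.999 ± 0.10, adjusted p = 2.57e-06) and CBS from 706 and 577 CPM to 314 and 305 CPM. The C/EBP-ATF element TGATGNAAN, on either strand, was in 5 of 32 list promoters (15.6%) and in 3.14% of all promoters. Cytosolic aminoacyl-tRNA synthetases, which load amino acids onto tRNA, fell in 12 of 20 cases and rose in 1, with a median of -0.33. MARS was at 796 and 806 CPM against 492 and 477 CPM, and CARS, AARS and IARS fell by 0.70, 0.63 and 0.54 on the log2 scale. With either 24 h library left out 5 of the 20 fell. Endoplasmic reticulum chaperones fell in 10 of 22 cases and rose in 2, with CRELD2 at 20.9 and 24.9 CPM against 13.3 and 12.2 CPM. This count depended on single libraries: 15 fell without the first DMSO library, 6 without the second, and 5 and 4 without the first and the second 24 h library.

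**Figure D3:**
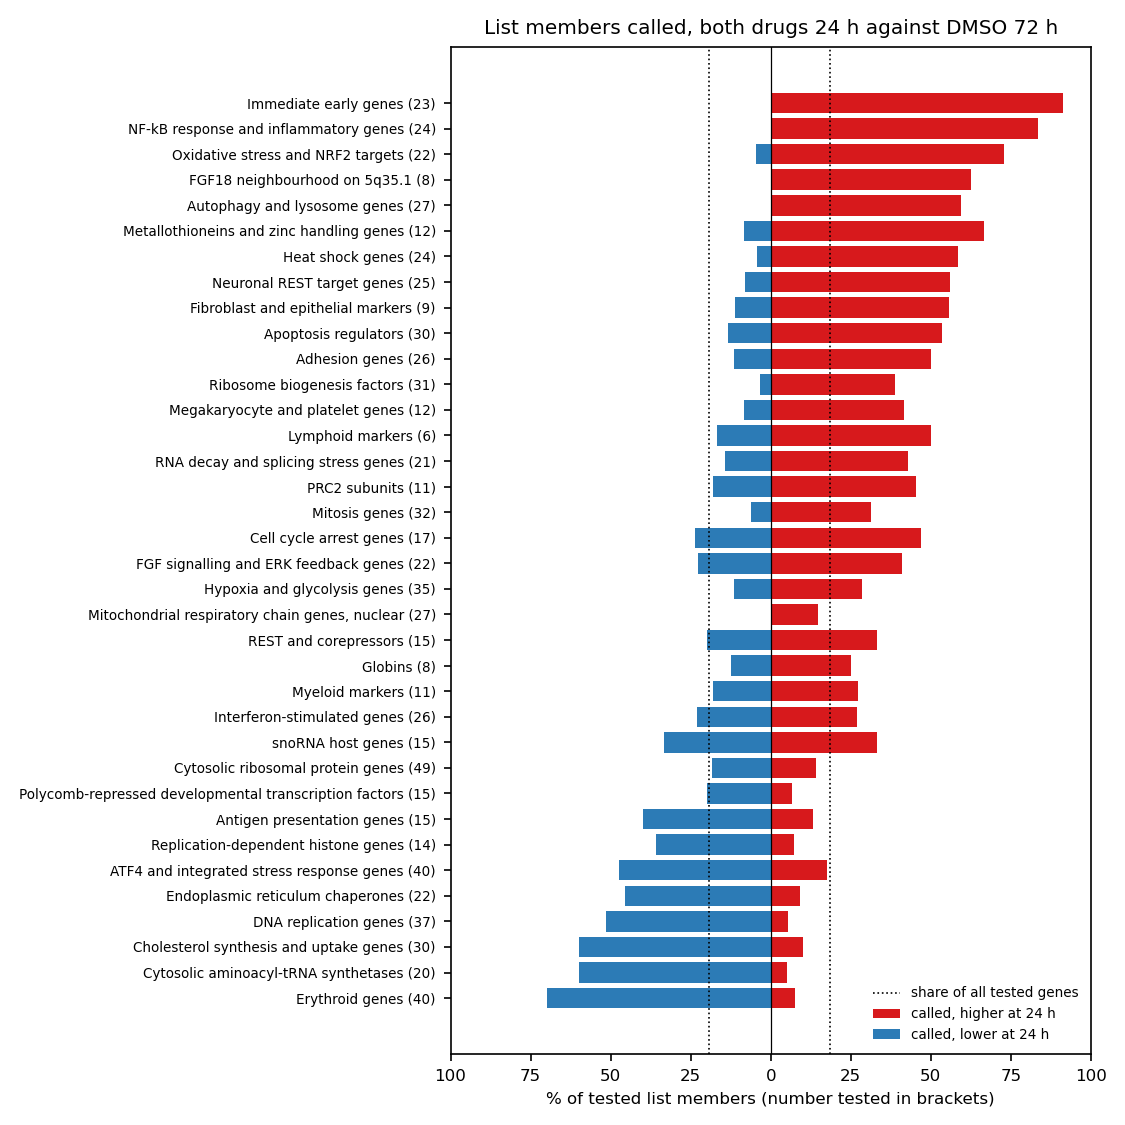
Share of the tested members of each of 36 gene lists called higher (red, right) or lower (blue, left) at 24 h than with DMSO, in % on the x axis, with the number tested in brackets. Dotted lines mark all tested genes, 18.5% higher and 19.3% lower: immediate early and NF-κB genes reach farthest to the right and erythroid genes farthest to the left.

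Genes of the cell cycle did not move as a block. DNA replication genes fell in 19 of 37 cases and rose in 2, with a median of -0.30, and 9 fell with either 24 h library left out. CDT1, which licenses replication origins, went from 491 and 544 CPM to 144 and 150 CPM (-1.25 ± 0.12, adjusted p = 7.53e-07, or -1.82 with the trend kept), and MCM2, a subunit of the replicative helicase, from 279 and 317 CPM to 125 and 119 CPM. ORC1 and PRIM1 fell by 0.77 and 0.71. Mitosis genes rose in 10 of 32 cases and fell in 2, with a median of 0.18. That count moved with the settings: 18 rose with the trend kept, 20 without the second DMSO library, 6 (with 5 falling) without the first, and 5 with either 24 h library left out. Its firmest members were HMMR, at 99.7 and 111 CPM against 217 and 218 CPM (0.66 ± 0.09, adjusted p = 4.79e-05), CENPF, a kinetochore protein, CCNB1, cyclin B1, and KIF23, a motor of cell division. At 72 h, 27 of the 32 mitosis genes and 27 of the 37 replication genes were lower than at 24 h, where 15.8% of all tested genes were.

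**Figure D4:**
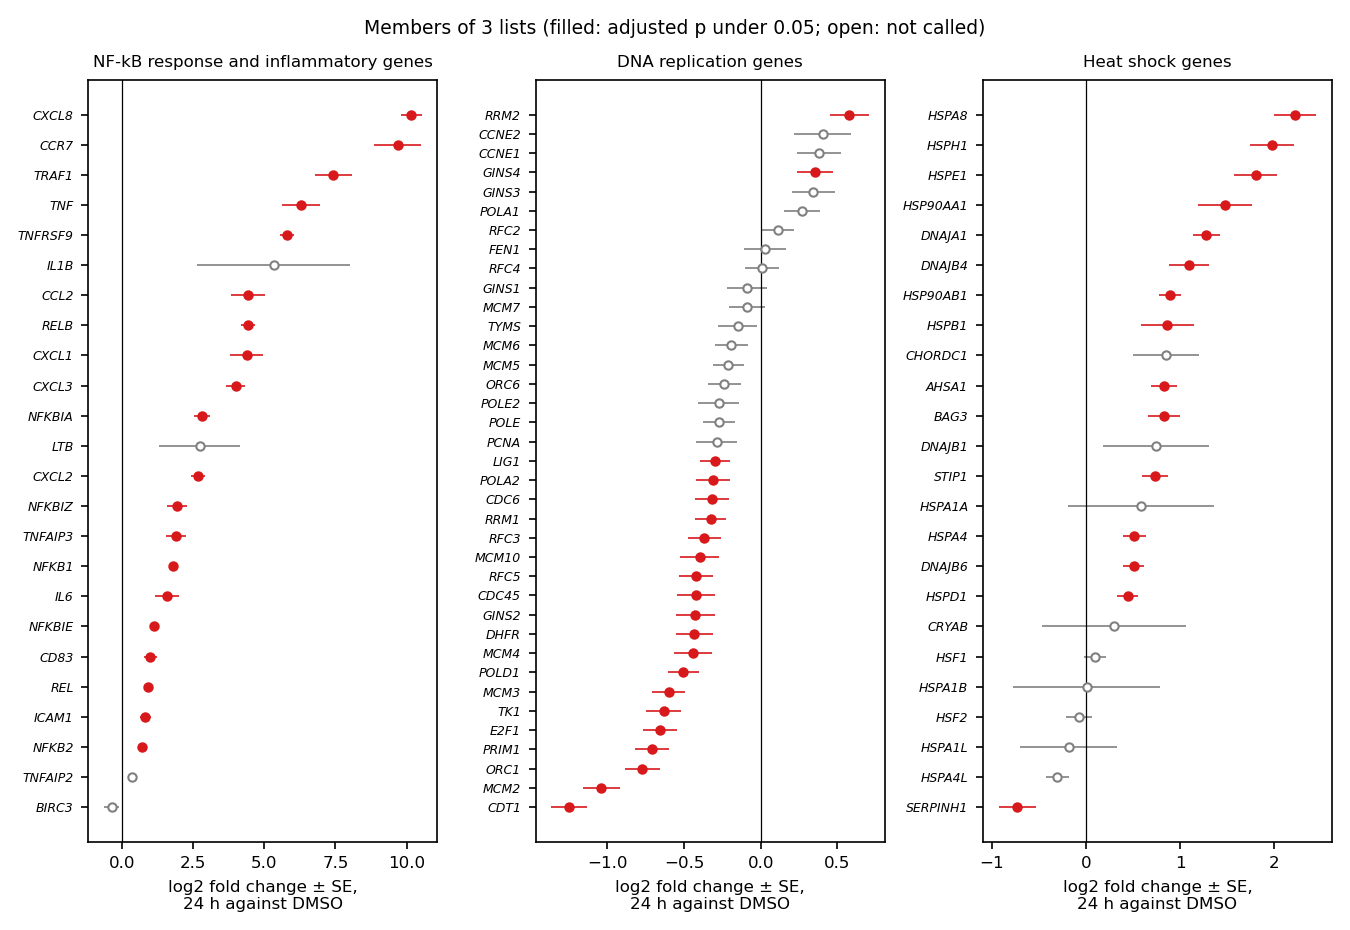
Log2 fold change at 24 h against DMSO with its SE (x axis) for every tested member of 3 lists, filled where the adjusted p was under 0.05. In the NF-κB list all filled points lie above 0, in the DNA replication list 19 lie below and 2 above, and in the heat shock list 14 lie above and 1 below; the values of CCR7 and IL1B, with no DMSO count, depend on the fit's prior count.

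Among 17 cell cycle arrest genes 8 rose and 4 fell, or 1 fell without the second DMSO library or the first 24 h library and 2 without the second 24 h library. CDKN1A, the cyclin kinase inhibitor p21, was at 17.5 and 17.7 CPM with DMSO, 32.0 and 33.8 CPM at 8 h and 159 and 157 CPM at 24 h (3.42 ± 0.14, adjusted p = 1.12e-10). GADD45A, which responds to DNA damage, went from 65.2 and 66.3 CPM to 248 and 250.3 CPM, and PLK3 from 24.4 and 14.2 CPM to 44.2 and 44.0 CPM. GADD45B rose from 2.64 and 1.76 CPM to 9.80 and 9.32 CPM, then to 169.7 and 169 CPM at 72 h. Apoptosis regulators rose in 16 of 30 cases and fell in 4 (2 without the first 24 h library), with a median of 0.64, and those that rose include both survival and death factors. MCL1, which protects cells from apoptosis, went from 238 and 205 CPM to 2139 and 2301 CPM (3.16 ± 0.14, adjusted p = 2.70e-10). The inhibitors CFLAR and XIAP were at 123 and 109 CPM against 288 and 302 CPM, and at 105 and 127 CPM against 292 and 289 CPM. BBC3, the death factor PUMA, stood at 61.5 and 60.7 CPM against 76.1 and 76.0 CPM, and its change was 1.13 with the trend removed and 0.32 with it kept.

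**Figure D5:**
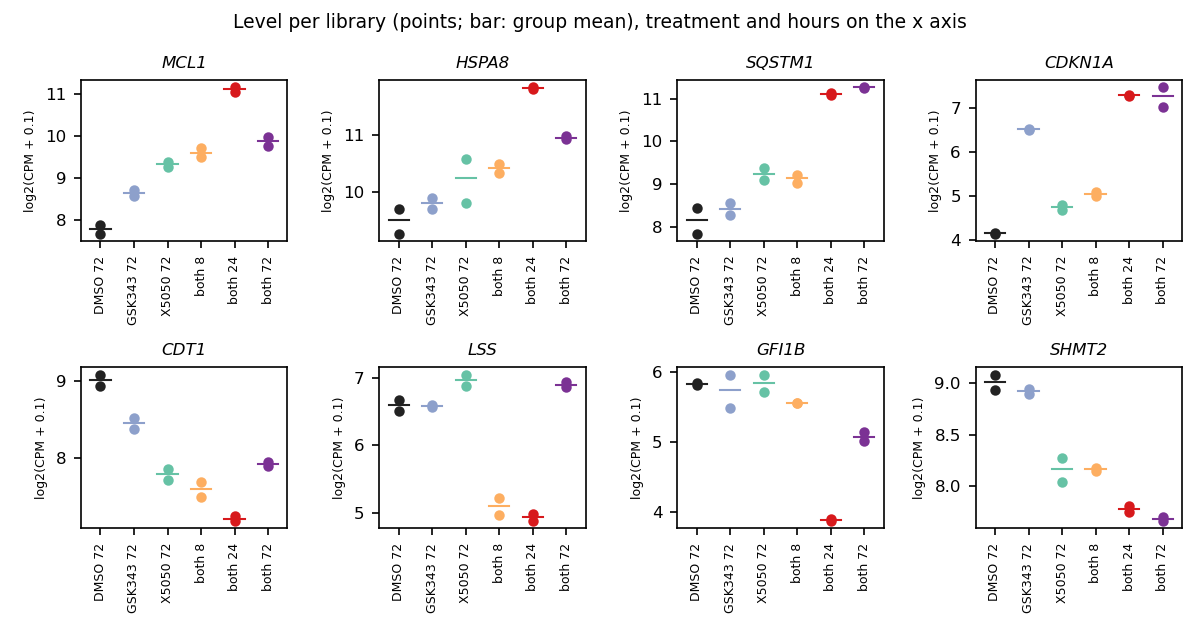
Level per library (log2 of CPM plus 0.1, y axis) of 8 stress, cell cycle and metabolic genes in the 6 drug groups (x axis, treatment and hours), with points for libraries and a bar for the group mean. The group means of MCL1 and HSPA8 are highest and those of CDT1, LSS and GFI1B lowest at 24 h, although the 8 h and 24 h libraries of LSS overlap.

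The lineage lists were read against the defining markers of K562. The fetal globins HBG1 and HBG2 were at 179 and 194 CPM and at 658 and 689 CPM with DMSO, and at 415 and 424 CPM and 1408 and 1412 CPM at 24 h. GATA1, the erythroid master factor, was at 191 and 220 CPM against 104 and 112 CPM. All 4 libraries thus hold the markers of the line. Of 40 erythroid genes 28 fell and 3 rose, with a median of -0.87. Their summed level went the other way, from 6821 and 7300 CPM to 12350 and 11209 CPM. That sum includes the abundant FTL, which alone went from 1005 and 1264 CPM to 4682 and 3955 CPM. GFI1B, a repressor needed for red cell and platelet formation, went from 56.2 and 57.1 CPM to 14.5 and 14.8 CPM (-2.13 ± 0.15, adjusted p = 3.12e-08), TFR2, the second transferrin receptor, from 162 and 169 CPM to 36.5 and 36.6 CPM, and GYPE from 66.8 and 67.6 CPM to 20.9 and 16.6 CPM. The 3 that rose take up or store iron: FTL, and TFRC and FTH1, which were named after their values were seen. The GATA site AGATAAG, on either strand, was in 4 of 28 erythroid promoters (14.3%) and in 2.37% of all. Of 8 globins tested 2 rose and 1, HBQ1, fell from 13.1 and 17.6 CPM to 2.43 and 1.80 CPM. With DESeq2, and with only the 4 libraries fitted, 5 of the 8 rose, while 1 rose with either DMSO library or the first 24 h library left out. HBG1 and HBG2 were not called (1.06 and 1.05, adjusted p = 0.0601 and 0.101), and since they are near copies the level of each is uncertain. In bulk RNA fewer cells of a type and less RNA per cell cannot be told apart.

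Of 12 megakaryocyte and platelet genes 5 rose and 1 fell. ITGB3, the platelet integrin chain, was at 0.785 and 0.440 CPM against 20.6 and 24.3 CPM (5.26 ± 0.32, adjusted p = 6.42e-09), and GP6, the collagen receptor, at 2.27 and 2.76 CPM against 20.4 and 23.7 CPM. NFE2, a factor of both red cells and platelets, fell from 122 and 129 CPM to 31.3 and 27.5 CPM. Markers of other cell types moved as well. Of 11 myeloid markers 3 rose and 2 fell. Their summed level was 82.6 to 85.1 CPM with DMSO and 70.0 to 70.1 CPM at 24 h, with ITGAX up from 0.454 and 0.520 CPM to 13.5 and 13.4 CPM and CD33 down from 33.6 and 30.6 CPM to 16.8 and 17.3 CPM. Of 6 lymphoid markers 3 rose, IL7R and TCF7 among them, and 1 fell, with a sum of 16.8 to 21.2 CPM against 46.9 to 47.4 CPM. Of 9 fibroblast and epithelial markers 5 rose and 1 fell, with a sum of 549.9 to 601 CPM against 1209.6 to 1245 CPM, and the keratin KRT8 stood at 216 and 238 CPM against 700.05 and 681 CPM. The monocyte marker CD14, looked at as a defining marker, was at 0.224 to 0.248 CPM in the 4 libraries, and the T cell marker CD3E at 0.454 and 0.280 CPM with DMSO and at 0 and 0.0334 CPM at 24 h. A part of other cells in these results was not tested. Adhesion genes rose in 13 of 26 cases and fell in 3. CD44, the hyaluronan receptor, went from 0.991 and 1.04 CPM to 22.4 and 23.2 CPM (4.32 ± 0.36, adjusted p = 1.22e-06), and EPHB6 from 13.8 and 9.44 CPM to 104 and 115 CPM.

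Cholesterol synthesis and uptake genes fell in 18 of 30 cases and rose in 3, with a median of -0.84. Both counts moved when single libraries were left out. The summed level of the 30 genes was 4747 and 7947 CPM with DMSO and 4588 and 4478 CPM at 24 h. The 2 DMSO libraries thus lay well apart, and the first stood close to the 24 h libraries. LSS, lanosterol synthase, went from 102 and 91.1 CPM to 31.5 and 29.3 CPM (-1.40 ± 0.11, adjusted p = 8.48e-08), and MVK, mevalonate kinase, from 32.3 and 50.9 CPM to 11.4 and 11.7 CPM. The master regulators SREBF1 and SREBF2 were at 172 and 187 CPM against 66.3 and 68.8 CPM, and at 463 and 562.1 CPM against 231 and 222 CPM. LSS had reached this level by 8 h, at 31.1 and 37.1 CPM, and stood at 116 and 122 CPM at 72 h. These CPM values are not adjusted for GC. With the trend removed LSS rose by 1.48 log2 units from 24 h to 72 h, beside its fall of 1.40 at 24 h. The sterol regulatory element TCACNCCAC, on either strand, was in 1 of 22 list promoters (4.55%), that of SREBF2, and in 0.882% of all. Of 35 hypoxia and glycolysis genes 10 rose and 4 fell, or 8 fell without the first DMSO library and 2 without the first 24 h library. SLC2A3, a glucose transporter, was at 161 and 233 CPM against 766 and 781 CPM (1.83 ± 0.16, adjusted p = 5.21e-07), PKM, pyruvate kinase, at 315 and 381 CPM against 1057 and 980.2 CPM, and NDRG1 at 7.14 and 5.96 CPM against 39.0 and 36.1 CPM. PFKFB4, which sets fructose bisphosphate levels, fell from 25.9 and 31.6 CPM to 6.08 and 5.01 CPM.

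Antigen presentation genes fell in 6 of 15 cases and rose in 2. PSMB9 and PSMB8, subunits of the immunoproteasome, went from 4.96 and 5.60 CPM to 0.448 and 0.334 CPM (-3.84 ± 0.40, adjusted p = 2.77e-06) and from 2.77 and 2.88 CPM to 0.384 and 0.668 CPM. TAP1, the peptide transporter encoded next to PSMB9, fell from 16.5 and 18.8 CPM to 7.87 and 7.15 CPM. HLA-E, a class I molecule, went the other way, from 73.6 and 93.1 CPM to 159 and 156 CPM. At 72 h PSMB9 was back at 4.03 and 4.20 CPM, and 10 of the 15 genes were higher than at 24 h. Interferon-stimulated genes were mixed, with 7 of 26 higher and 6 lower: DDX60 was at 0.0413 and 0.280 CPM against 10.6 and 7.58 CPM and IFIT3 at 1.45 and 1.44 CPM against 6.85 and 5.31 CPM, while PARP9 fell by 1.12 and STAT2, a transducer of interferon signals, by 0.58 on the log2 scale.

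The remaining lists concern RNA and protein synthesis. Ribosome biogenesis factors rose in 12 of 31 cases and fell in 1, with 6 rising without the first DMSO library or the first 24 h library. RRP12 was at 48.4 and 56.7 CPM against 123 and 117 CPM (1.45 ± 0.14, adjusted p = 1.03e-06), and UTP20 and GAR1 rose by 1.01 and 0.84. Of 49 cytosolic ribosomal protein genes 7 were higher and 9 lower, with a median of -0.015. These counts turned on single libraries: 3 were higher and 15 lower without the first DMSO library, 9 and 3 without the second, 1 and 4 without the first 24 h library and 7 and 2 without the second. RPS2 went from 2057 and 2355 CPM to 1375 and 1306 CPM, and RPS25 from 455 and 579 CPM to 788 and 701 CPM. Nuclear genes of the mitochondrial respiratory chain were higher in 4 of 27 cases and lower in none, with a median of 0.024, and in 7 and 3 with the trend kept. Without the first DMSO library none was higher and 2 were lower, and without the second 9 were higher. Without the first 24 h library none was higher, and without the second 1 was. RNA decay and splicing stress genes rose in 9 of 21 cases and fell in 3, or rose in 15 with the trend kept and in 5 with only the 4 libraries fitted. NEAT1, the long RNA that builds paraspeckles, was at 984 and 734 CPM against 2358 and 3706 CPM, and HNRNPDL, a splicing factor, at 133 and 149 CPM against 356 and 368 CPM. Of 15 snoRNA host genes 5 rose and 5 fell, with ZFAS1 at 65.7 and 72.0 CPM against 95.3 and 91.8 CPM and SNHG1 at 383 and 276 CPM against 222 and 235 CPM. In fits without 1 of the 4 libraries 1 or 2 of them rose. Of 14 replication-dependent histone genes 5 fell and 1, the linker histone HIST1H1B, rose from 60.9 and 61.3 CPM to 111 and 97.3 CPM. HIST2H2AC was at 335 and 345 CPM against 142 and 132 CPM. Histone genes of a family are near copies, so the level of each is uncertain.

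Against 8 h of both drugs, 7116 genes (37.0%) were called at 24 h, 3678 higher (19.1%) and 3438 lower (17.9%), and between 24 h and 72 h 6581 (34.2%), 3548 higher (18.5%) and 3033 lower (15.8%) at 72 h. The 8 h and 24 h libraries share the GC trend, and these comparisons share the 24 h libraries with that against DMSO. Between 8 h and 24 h, 29 of 40 erythroid genes fell and 2 rose, 17 of 22 oxidative stress genes rose and none fell, 15 of 23 immediate early genes rose and none fell, and 14 of 24 NF-κB genes rose and none fell. From 24 h to 72 h, 16 of the erythroid genes rose and 4 fell, 13 of the oxidative stress genes fell and none rose, and 14 of the NF-κB genes rose and 3 fell. Of the 12 metallothionein and zinc handling genes 10 rose and 1 fell from 24 h to 72 h. The lists therefore differed in where their 24 h level lay: the oxidative stress genes that changed afterwards were lower at 72 h, while more NF-κB genes were higher at 72 h than lower.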

How the data were processed

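Total RNA depleted of rRNA was sequenced from K562 cells. The authors deposited gene counts, per the labels' protocols. The submitters' processing notes name Trimmomatic 0.38, STAR 2.7.3a and hg19; the annotation release is not given in the sources used here. The reverse strand counts were used, which were 8.01 to 9.77 times the forward ones. Rows that name no gene, which held 34.0% to 42.5% of the reads in the 4 libraries, stayed out of totals and tests. The drug libraries held 22925617 to 38177320 gene counts. Of 57736 identifiers 52301 were found in GENCODE 29, used for names, gene type and GC content only. Promoters came from RefSeq on GRCh38.p14 and were matched by symbol.

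Genes passing filterByExpr (19224, of which 18498 had a GC content) were fitted in edgeR 4.0.16 (R 4.3.3) with 1 mean for each of 6 groups, TMM factors of 0.873 to 1.09, 6 residual degrees of freedom and the robust quasi-likelihood test. In each library a loess curve (span 0.3) of the log2 deviation on GC content, over genes averaging 1 CPM or more, was subtracted as an offset. The Benjamini-Hochberg adjustment ran over the whole table with a threshold of 0.05. SE is the log2 fold change over the root of F, an approximation. With 2 libraries a group, exact permutation p-values start at 0.333. Bounds use 3 counts over the DMSO group, and ratios over 1 to 3 counts have 95% binomial intervals for counting error only.

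Named genes were the 14 largest rises and falls among protein-coding genes of the stricter set, EZH2, REST and FGF18, and up to 4 members of each of 36 lists by lowest p. Some of these genes are not reported here. The members and lists were chosen with earlier results of these data known, and the NF-κB, AP-1, heat shock, sterol and GATA motifs were added after the data were seen. On simulated data for 24 h against DMSO with 18491 genes, the fit recovered 72 of 100 genes changed by 2-fold and 94 of 100 changed by 4-fold with 19 unchanged genes called. With the trend kept it recovered 81 and 94 and called 1339 unchanged genes. The simulated counts were given the GC trend fitted on these data, so the gap between these fits was built in. No other gene changed in any group, whereas 37.8% of tested genes were called in the data. The run therefore cannot show what the real trend is due to, which was not tested. Alternatives covered the trend, filter, scaling, tool (DESeq2 1.42.0), strand, groups fitted, a replicate block and leaving out libraries. Other libraries of the series were not analysed here.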

Additional observations from a re-analysis of the deposited data

Results flagged for a closer look

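In 3 named genes both drugs' 24 h and 72 h effects against the same DMSO libraries had opposite signs, each over 0.5 log2 units. Genes with a smaller effect at either time, such as EZH2, were not counted. For the 3 genes the 24 h and 72 h libraries also differed in edgeR's test. These effects share controls, and the difference in GC trend between the 2 times was removed first. TCF7, a T cell transcription factor, was 1.17 above DMSO at 24 h and stood at -0.72 at 72 h (log2), a difference of -1.89 ± 0.19 (adjusted p = 3.13e-06). HMMR, a spindle protein, stood at 0.66 and -0.52, a difference of -1.18 ± 0.09 (adjusted p = 4.76e-07). The histone gene HIST1H4H stood at -0.57 and 0.93, a difference of 1.49 ± 0.12 (adjusted p = 7.09e-07).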

How the results depend on the processing

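None of the 138 named genes changed direction in any alternative run, and calls were lost for EZH2 and FGF18 only, as given above for EZH2 with only the 4 libraries fitted. This was partly fixed by selection, since 137 of the named genes met the stricter conditions. Those conditions ask for calls with the trend kept and without each of the 4 libraries. Alternatives such as tool, filter and strand were not part of that choice. For FGF18 the adjusted p was also 0.0940 with DESeq2, 0.0611 with no filter and 0.0803 in a replicate block fit with the trend kept. Restricting the fit to genes of middle GC content left 6168 to test and 2284 called at 24 h against DMSO (1185 higher, 1099 lower), 2234 against 8 h and 2093 between 24 h and 72 h; fewer genes were tested. DESeq2 called 3441 higher and 3498 lower genes at 24 h, and the fit of only the 4 libraries 2703 and 3259. Leaving out 1 library left 4605 to 7268 genes called at 24 h against DMSO (2405 to 3695 higher, 2200 to 3573 lower), with 4605 without the first and 4721 without the second 24 h library. Against 8 h the range was 4438 to 4768, and between 24 h and 72 h 3704 to 4837. The median of the myeloid list turned from 0.13 to -0.11 and that of the respiratory chain list from 0.024 to -0.035 with only the 4 libraries fitted, and that of the ribosomal protein list from -0.015 to 0.0021 with the trend kept; the cause was not tested. Of 75 alternative counts 60 stayed within 1.5 times. Same-numbered libraries deviated together with r of -0.093 (DMSO and 24 h) to 0.345 (DMSO and GSK343 alone). Values over 0.1 occurred only between 72 h groups, and their source was not tested. The main fit did not take the numbers as pairs. A replicate block gave 7396 called with the trend removed (3643 higher, 3753 lower) and 8339 with it kept. A gene at 0 in DMSO gives a lower bound only.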
